A study of Mus musculus with 15 samples.

Results

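The genes described here are the ubiquitin-conjugating enzymes (E2 enzymes) and deubiquitinating enzymes of the mouse trigeminal ganglion (TG), the ganglion that holds the cell bodies of the sensory neurons of the cornea. They were chosen by symbol among protein-coding genes: every symbol that starts with Ube2 or with Usp and a digit, plus Uchl1, Uchl3, Uchl5, Otub1 and Otub2, with Ube2c left out. Of 55573 genes in the table, 97 met this rule, and the 79 with a mean of at least 10 counts over the 15 TG are reported: 28 E2 genes, 49 deubiquitinase genes and 2 genes that share only the prefix, Ube2cbp and Usp6nl. The E2 and deubiquitinase classes follow the symbol and not enzyme activity, so Ube2v2, which lacks the active cysteine, counts as an E2 gene. All 79 passed the filter of the test. Among the other 18 members, 9 had no read in any sample, such as 5 genes of the Usp17l cluster, Usp26 and Ube2u.

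All 15 TG came from male CD1 mice of 10 weeks whose right cornea had been injured within a 2-mm trephine mark, and the right TG was taken on day 12. The eyes were treated 3 times a day with vehicle (5 TG), with resolvin D6, labelled RvD6-standard (5 TG), or with a stereoisomer of it, labelled RvD6-isomer (5 TG). The vehicle mice were injured too, so each comparison is between injured mice, and no uninjured TG was analysed here. Reads on the exons of each gene were counted, with 4125962 to 9903396 counts per TG, and both lipids were compared with the same 5 vehicle TG and with each other.

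Ubiquitin is a small protein that is attached to other proteins in a relay. An E1 enzyme activates it, an E2 enzyme carries it, and an E3 ligase directs it to a substrate, and the kind of chain that is built decides whether the substrate goes to the proteasome, to the lysosome or into a signalling complex. Some E2 enzymes carry ubiquitin-like proteins instead, such as NEDD8 or ISG15. Deubiquitinases remove or trim the chains and recycle free ubiquitin. In sensory neurons the system is known for the turnover of proteins along long axons, and UCHL1, also called PGP 9.5, is so abundant there that antibodies to it are used to stain corneal nerves.

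Levels are given as normalized counts, which are read counts divided by a size factor for each sample, and changes as log2 fold changes with their standard error (SE). The markers of sensory neurons (12 of 12), satellite glia (6 of 6) and Schwann cells (6 of 6) were detected and the label of the tissue was not contradicted. Markers of several other cell types were not even between the groups. The summed normalized counts of 7 erythroid markers were 17145 to 36268 in vehicle and 41616 to 76791 in RvD6-standard, and in RvD6-isomer they were 6784 to 18985 in 4 TG and 86215 in replicate 15. The 9 granulocyte precursor markers followed the same division, with 789 to 4227 in vehicle, 5006 to 16480 in RvD6-standard, 388 to 911 in 4 RvD6-isomer TG and 14111 in RvD6-isomer replicate 15. The 6 dividing-cell markers did so too, with 85.1 to 266 in vehicle, 322 to 1309 in RvD6-standard, 16.8 to 104 in 4 RvD6-isomer TG and 1014 in replicate 15. The 10 skeletal muscle markers were 132 to 1140 in vehicle, 667 to 18918 in RvD6-standard and 89.4 to 268 in RvD6-isomer, where replicate 15 was the lowest. The summed satellite glia markers were lower in every TG of both lipids, at 35863 to 47286 in RvD6-standard and 32385 to 46454 in RvD6-isomer, than in every vehicle TG, at 47958 to 57894, although 3 of the 6 single markers had estimates above 0 in each of these comparisons. The 7 pituitary markers, of which 6 were detected, were 71.4 to 27031 in vehicle, where replicate 3 was the highest. They were 1627 to 16769 in RvD6-standard and 146 to 4874 in RvD6-isomer. None of the markers in the other lists given here was at 0 over the series.

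RvD6-isomer replicate 15 thus stood with the RvD6-standard TG in its blood and dividing-cell markers and with its own group in the muscle markers. The 10 most counted genes of the table took 13.7% of the counts in replicate 15. They took 12.5% to 13.8% over the RvD6-isomer TG and 16.8% to 20.9% over the RvD6-standard TG. Whether replicate 15 belongs to the group of its label cannot be told from the files, and the label was followed. Without it edgeR called 87 genes in place of 111 with RvD6-isomer against vehicle, 51 in place of 0 with RvD6-standard against vehicle and 156 in place of 39 between the lipids. Of the members it then called Ube2j1 with RvD6-isomer (log2 fold change 0.94), Ube2l6 with RvD6-standard (0.81) and Ube2l6 between the lipids (-0.84). In whole ganglia, fewer cells of a type and less RNA per cell cannot be told apart.

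Uchl1, at chr5:66676091-66687234 (GRCm38, forward strand), had the highest level of the members and took 17.3% of all counts on them. It reached 4768 ± 400 normalized counts per kb of exon in vehicle (SD, n = 5), against 987 ± 110 for Ube2b, an E2 enzyme of DNA repair and histone ubiquitination and the next in order. Ube2b and the other genes of this paragraph were named for their level after the values were seen. Usp22, Otub1 and Usp5 followed, with 406, 404 and 308 normalized counts per kb over all 15 TG. The 10 most counted members held 49.4% of the counts on all members. The lowest levels were those of Usp29 and Usp49, with 0.820 and 1.92 normalized counts per kb over all TG.

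**Figure D1:**
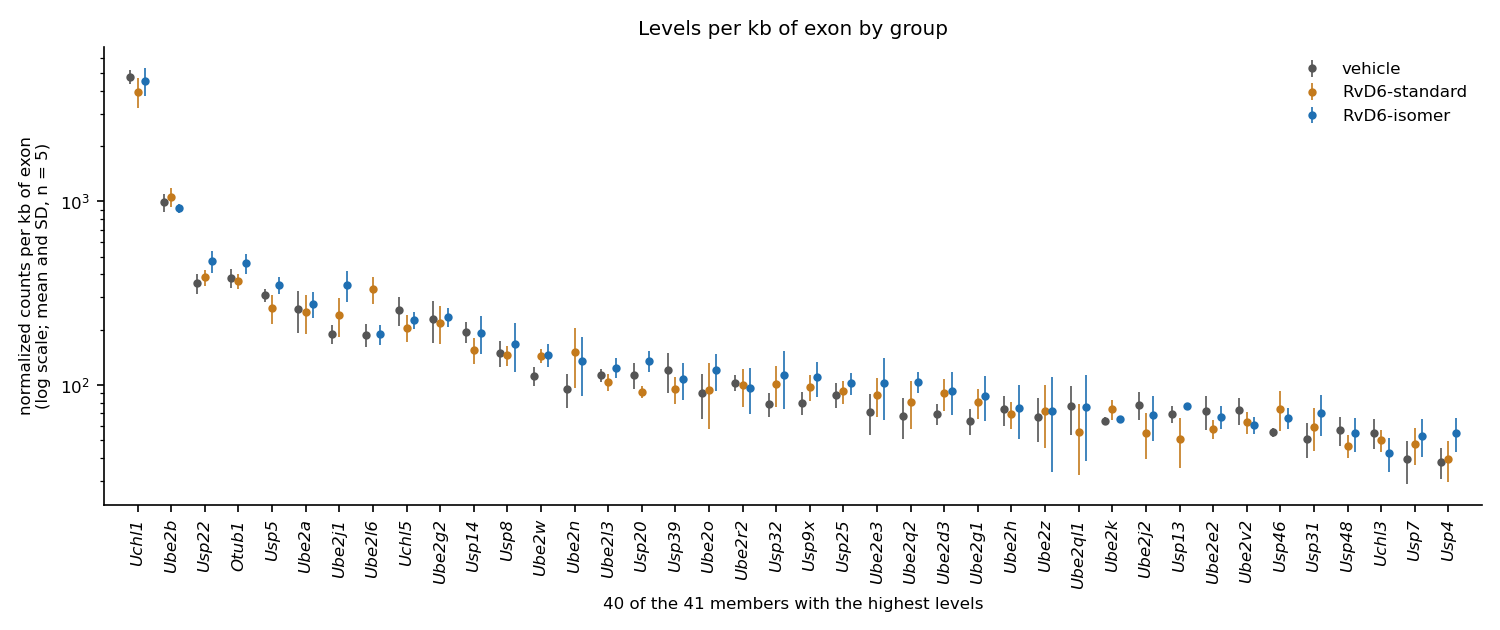
Normalized counts per kb of exon of 40 of the 41 members with the highest levels, on a log scale, with the mean and SD of the 5 TG of each group. Uchl1 stands above the rest in each group, and most neighbours in the order overlap within their SD.

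Some counts carry an uncertainty of the counting. Of the 79 members, 26 share exonic positions with another gene, in 22 cases with a gene on the opposite strand, among them Uchl1 (Uchl1os), Usp14, Usp18, Usp30 and Ube2d3. On shared positions, reads from a gene and its antisense partner cannot be told apart in these libraries. Reads that overlap several genes were not counted, so such positions can lower a count. Reads shared by near-identical copies, as in the Ube2d and Ube2n families and their pseudogenes, were not counted either.

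Few members passed the test with either lipid. In the comparison of RvD6-isomer with vehicle, 1 of 79 members had an edgeR adjusted p below 0.05, Ube2j1, and it was higher. Over all 16567 genes tested, 0.525% were called higher and 0.145% lower. At an unadjusted p below 0.05, 14 members were higher, 7 of them E2 genes and 7 deubiquitinase genes, and 0 were lower, beside 8.69% and 7.3% of all genes. DESeq2 called 5 members, all higher (Ube2j1, Ube2q2, Usp11, Usp22 and Usp33), where it called 3.3% of all genes higher and 2.26% lower.

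In the comparison of RvD6-standard with vehicle, edgeR called 0 members and 0.0% of all genes. At an unadjusted p below 0.05, 10 members were higher and 5 lower, beside 7.63% and 5.99% of all genes. DESeq2 called 2 members, Ube2l6 and Ube2d1, both higher, and 1.52% of all genes higher and 0.549% lower. Between the lipids, edgeR called 1 member, Ube2l6, which was lower with RvD6-isomer, as were 0.223% of all genes, while 0.0121% were higher. Unadjusted, 8 members were higher and 1 lower with RvD6-isomer, beside 4.18% and 4.64% of all genes, and DESeq2 called Ube2l6 lower and Usp20 higher, beside 0.67% of all genes lower and 0.308% higher.

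Ube2j1 encodes an E2 enzyme anchored in the membrane of the endoplasmic reticulum (ER), where it serves the removal of misfolded proteins. The gene lies at chr4:33031416-33052363 (GRCm38, forward strand). Its normalized counts were 585, 707, 774, 675 and 609 in vehicle, 893, 762, 832, 1143 and 590 in RvD6-standard, and 1633, 1038, 1288, 1190 and 1070 in RvD6-isomer. All RvD6-isomer TG lay above all vehicle TG, while the RvD6-standard TG overlapped both groups. RvD6-isomer was 1.85-fold higher than vehicle (log2 fold change 0.89, SE 0.17, 95% interval 0.53 to 1.24, edgeR adjusted p = 0.0262).

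The call for Ube2j1 was close to the threshold. It was lost, with adjusted p up to 0.0965, when any of the 5 vehicle TG or RvD6-isomer replicate 11, 13 or 14 was left out, while the log2 fold change stayed between 0.77 and 0.95 over all 15 such fits. In the fits that lost the call edgeR also called fewer of all genes. It called 6 to 13 without a vehicle TG, and 0, 68 and 9 without RvD6-isomer replicate 11, 13 and 14. With RvD6-isomer replicate 15 left out the call for Ube2j1 remained. With RvD6-standard the log2 fold change was 0.32 (SE 0.17, adjusted p = 0.426). RvD6-isomer exceeded RvD6-standard by 0.57 (95% interval 0.21 to 0.92, edgeR adjusted p = 0.26). The erythroid markers were lowest in the 3 RvD6-isomer TG with the highest Ube2j1, and with the level of these markers as a covariate the change from vehicle was 0.79 (adjusted p = 0.0594). The erythroid markers of RvD6-isomer and vehicle overlapped, while the summed satellite glia markers separated these groups. The part of satellite glia in the result was not tested.

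The promoter of Ube2j1 is shown because Ube2j1 was the only member that edgeR called with RvD6-isomer against vehicle, and the motif marked in it is known from genes of ER stress. The sequence is the RefSeq window of the 250 bases before the start, at chr4:33031130-33031379 on the forward strand of GRCm38.p6, with a match to the unfolded protein response (UPR) element TGACGTGG in capitals, here on the reverse strand.
Ube2j1: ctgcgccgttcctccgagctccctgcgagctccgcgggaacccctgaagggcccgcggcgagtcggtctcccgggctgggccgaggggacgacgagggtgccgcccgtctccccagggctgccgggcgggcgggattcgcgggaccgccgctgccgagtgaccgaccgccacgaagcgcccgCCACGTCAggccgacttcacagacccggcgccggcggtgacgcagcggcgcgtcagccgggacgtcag
The match spans positions -68 to -61 from the start. On either strand, 0.563% of 32851 RefSeq windows of the same length held this element, and of the 62 members with a window Ube2j1 was the 1 that did.

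Other E2 enzymes of the ER were named after their values were seen. Ube2j2, a membrane-anchored relative of Ube2j1, had 345 ± 59.7 normalized counts in vehicle and 301 ± 82.9 in RvD6-isomer (SD, n = 5), a log2 fold change of -0.20 (SE 0.23, adjusted p = 0.727). Ube2g2, which works with ER ligases, stood at 0.04 (SE 0.19, adjusted p = 0.95). Ube2g1, its close relative, stood at 0.45 (SE 0.20, adjusted p = 0.268). None of the 3 passed the test with either lipid.

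Ube2l6 encodes the E2 enzyme that carries ISG15, a ubiquitin-like protein induced by interferon, and it can also carry ubiquitin. The gene lies at chr2:84798828-84810335 (GRCm38, forward strand). Its normalized counts were 329, 341, 397, 459 and 344 in vehicle, 706, 792, 679, 496 and 638 in RvD6-standard, and 313, 352, 378, 430 and 418 in RvD6-isomer. Every RvD6-standard TG lay above every other TG, and the vehicle and RvD6-isomer TG covered nearly the same range. It was 1.74-fold lower with RvD6-isomer than with RvD6-standard (log2 fold change -0.80, SE 0.16, 95% interval -1.13 to -0.47, edgeR adjusted p = 0.0387).

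Against vehicle, RvD6-standard gave a log2 fold change of 0.81 (SE 0.16, 95% interval 0.49 to 1.14) that missed the threshold in edgeR, with adjusted p = 0.0967, and passed it in DESeq2, with adjusted p = 0.000242. It also passed in edgeR with RvD6-isomer replicate 15 left out (adjusted p = 0.0423). RvD6-isomer against vehicle gave 0.01 with a 95% interval of -0.31 to 0.34. The call between the lipids was lost when vehicle replicate 3, RvD6-standard replicate 6, 7, 8 or 10, or RvD6-isomer replicate 11, 12, 13 or 14 was left out, with adjusted p up to 0.134 and a log2 fold change between -0.88 and -0.73.

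The 5 RvD6-standard TG, which had the highest Ube2l6, also had erythroid, granulocyte precursor and dividing-cell markers above all vehicle TG, and skeletal muscle markers above all RvD6-isomer TG. RvD6-isomer replicate 15, whose erythroid markers at 86215 were the highest of all TG and whose muscle markers at 89.4 were the lowest, had 418 normalized counts of Ube2l6, within the range of the vehicle TG. Within the RvD6-standard group replicate 9 had both the lowest Ube2l6, at 496, and the lowest erythroid level, at 41616, but the highest muscle level, at 18918, and within the vehicle group replicate 4 had the highest Ube2l6, at 459, and the highest erythroid and muscle levels, at 36268 and 1140. With the erythroid level as a covariate the difference between the lipids was -0.61 (edgeR unadjusted p = 0.0162, adjusted p = 0.999), and with the granulocyte precursor level it was -0.55. In both fits edgeR called 0 of all genes between the lipids. Replicate 15 was the only RvD6-isomer TG whose erythroid and granulocyte precursor markers lay above all vehicle TG. These fits therefore cannot tell the lipid and the marker level apart. The part of blood-forming, muscle and dividing cells was not tested.

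**Figure D2:**
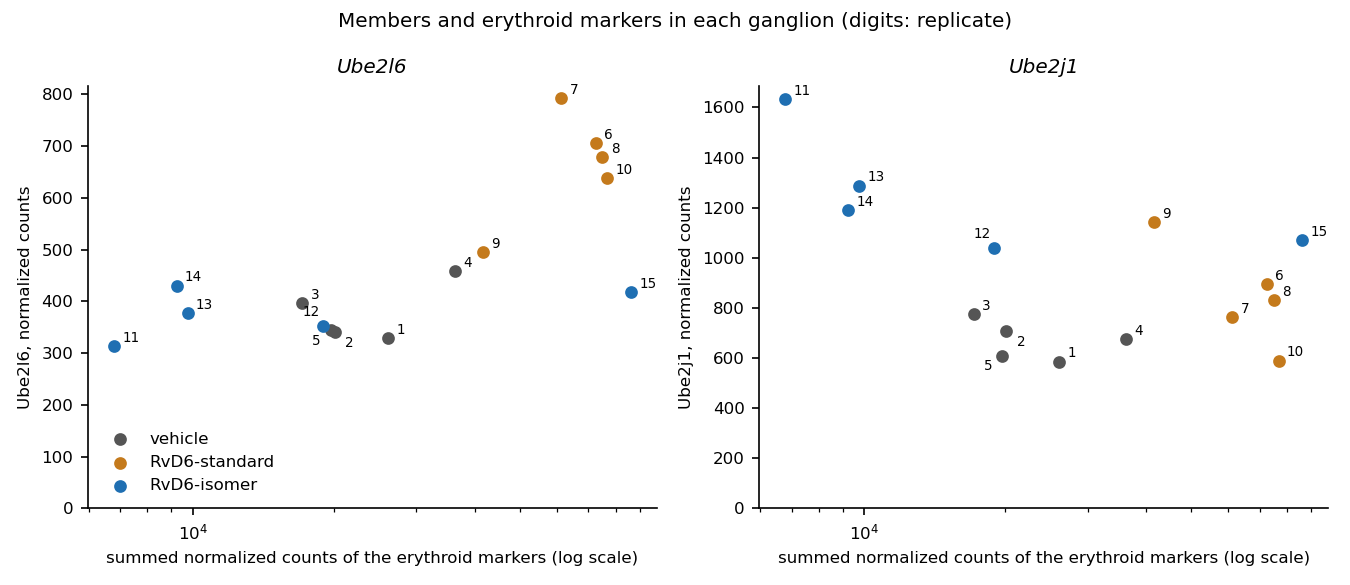
Normalized counts of Ube2l6 (left) and Ube2j1 (right) in each TG against the summed normalized counts of 7 erythroid markers on a log scale, with the replicate numbers. RvD6-isomer replicate 15 lies at 86215 erythroid counts, on the side of the RvD6-standard TG, with 418 counts of Ube2l6 and 1070 of Ube2j1.

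Uba7 and Usp18, the other genes of ISG15 attachment and removal that were examined and tested, did not separate the groups. Isg15 itself had a mean of 3.0 counts and was not tested. Uba7, the E1 enzyme for ISG15, had 47.9 ± 24.0 normalized counts in vehicle, 77.0 ± 51.8 in RvD6-standard and 57.5 ± 30.6 in RvD6-isomer (SD, n = 5). Its log2 fold change for RvD6-standard against vehicle was 0.68, with a wide SE of 0.59 (edgeR adjusted p = 0.653). Usp18, the protease that removes ISG15, ranged from 6.42 to 69.4 in vehicle, from 15.6 to 49.0 in RvD6-standard and from 5.59 to 68.5 in RvD6-isomer. The promoter of Ube2l6 is printed because it was the only member that edgeR called between the lipids, from RefSeq at chr2:84798578-84798827, forward strand of GRCm38.p6.
Ube2l6: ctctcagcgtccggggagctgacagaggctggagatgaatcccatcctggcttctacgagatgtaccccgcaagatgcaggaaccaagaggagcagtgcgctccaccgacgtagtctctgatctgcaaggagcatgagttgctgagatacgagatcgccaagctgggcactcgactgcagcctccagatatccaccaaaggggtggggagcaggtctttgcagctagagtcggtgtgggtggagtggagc
The core of the interferon-stimulated response element, a GAAA followed by any 2 bases and another GAAA, was searched on both strands and is not in this window. It was found in 2.98% of all windows and in 1 of the 62 members with a window, Usp49.

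The E2 enzymes for NEDD8 did not pass the test. Ube2m was low, at 22.9 ± 8.06 normalized counts in vehicle, 24.7 ± 10.1 in RvD6-standard and 14.6 ± 5.57 in RvD6-isomer (SD, n = 5), with a log2 fold change of -0.66 (SE 0.46) for RvD6-isomer against vehicle. Ube2f, the other NEDD8 carrier, named after its values were seen, stood at -0.16 for RvD6-isomer and -0.30 for RvD6-standard.

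Among the E2 enzymes that build ubiquitin chains, the Ube2d genes encode enzymes that work with many ligases. Ube2d1 had 61.3, 42.7, 32.9, 14.8 and 17.3 normalized counts in vehicle, 83.6, 63.1, 63.0, 162 and 64.4 in RvD6-standard, and 91.5, 69.5, 46.6, 52.8 and 84.5 in RvD6-isomer. All RvD6-standard TG lay above all vehicle TG, and the RvD6-isomer TG overlapped the vehicle TG. The log2 fold changes were 1.35 (SE 0.40) with RvD6-standard and 1.01 (SE 0.40) with RvD6-isomer, with edgeR adjusted p = 0.177 and 0.216, and DESeq2 called the first with adjusted p = 0.0456. Ube2d3, with far more reads, had 1703 ± 219, 2210 ± 431 and 2285 ± 600 normalized counts in vehicle, RvD6-standard and RvD6-isomer, and log2 fold changes of 0.36 and 0.42 (SE 0.17 each, edgeR adjusted p = 0.353 and 0.221).

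Ube2n makes the chains linked through lysine 63 that serve signalling and DNA repair, together with Ube2v1 or Ube2v2, which resemble E2 enzymes but lack the active cysteine. Ube2n had 400 ± 84.8 normalized counts in vehicle, 636 ± 231 in RvD6-standard and 572 ± 202 in RvD6-isomer (SD, n = 5), with edgeR adjusted p = 0.295 and 0.353. Ube2v2, named after its values were seen, had log2 fold changes of -0.23 and -0.27. Ube2v1 had a mean of 6.2 counts and was not tested. It shares exonic positions with Gm20431 on the same strand, and reads that overlap more than 1 gene were not counted.

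Ube2k, which builds the chains that lead to the proteasome, was among the steadiest E2 genes, with 505 ± 24.5, 581 ± 70.8 and 516 ± 19.5 normalized counts in vehicle, RvD6-standard and RvD6-isomer. The log2 fold change with RvD6-isomer was 0.03, with SE 0.12. Ube2q2, a less studied E2 gene, had 205, 363, 271, 372 and 251 normalized counts in vehicle and 479, 415, 537, 386 and 431 in RvD6-isomer, so the groups did not overlap. Its log2 fold change was 0.62 (SE 0.21), with adjusted p = 0.145 in edgeR and 0.0446 in DESeq2. In RvD6-standard it ranged from 262 to 519 and overlapped both groups.

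**Figure D3:**
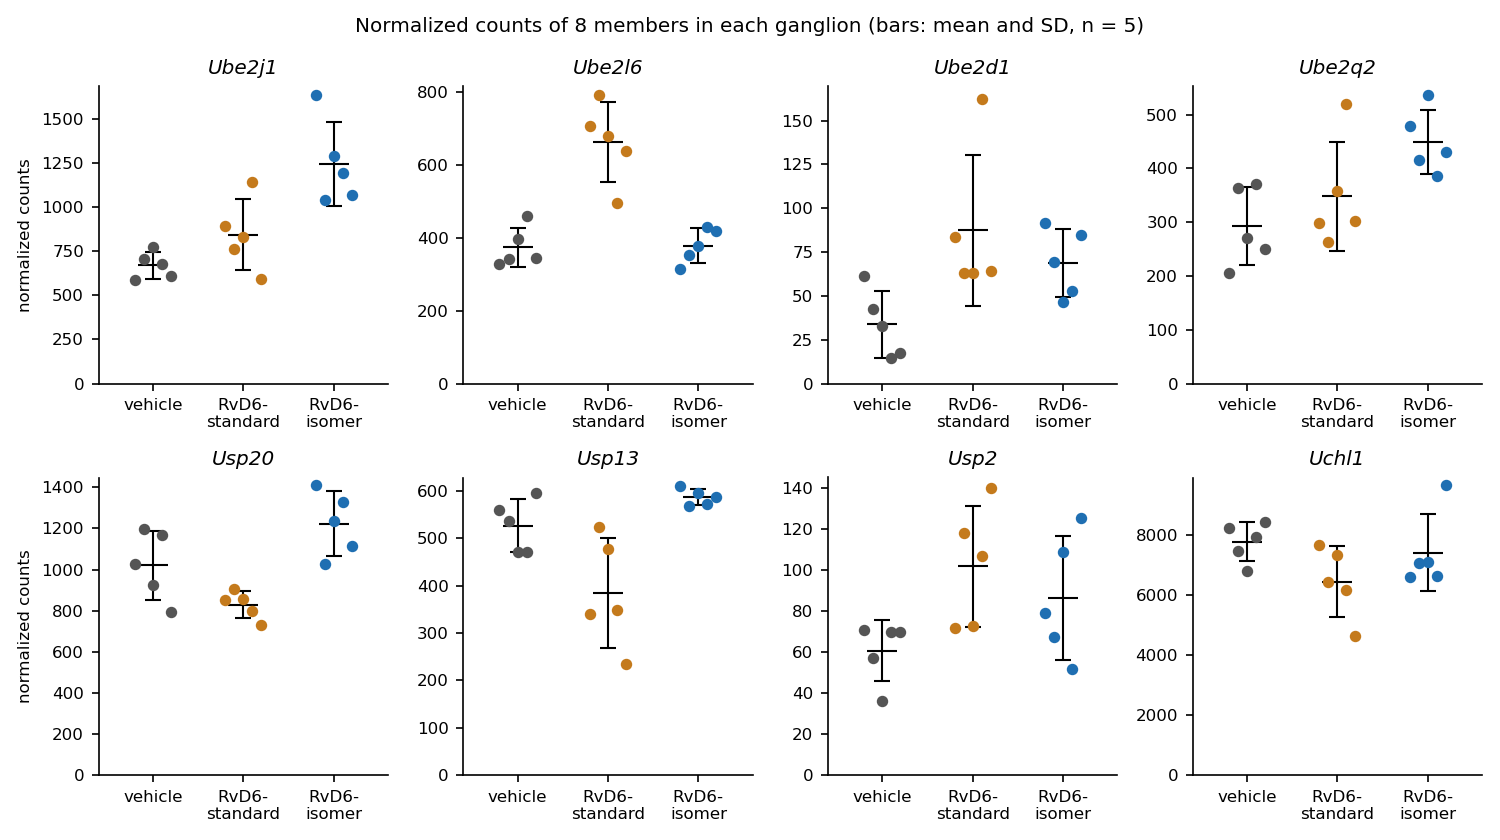
Normalized counts of 8 members in each TG, from 0 upwards, by group, with the mean and SD of 5 TG as a bar. Ube2j1 and Ube2q2 show RvD6-isomer TG above all vehicle TG, Ube2l6 shows RvD6-standard TG above all other TG, and Uchl1 shows RvD6-isomer replicate 15 at 9675, apart from the other 4 TG of its group.

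Among the deubiquitinases, Uchl1 had 8248, 7459, 6816, 7950 and 8433 normalized counts in vehicle, 7667, 6428, 7343, 6169 and 4640 in RvD6-standard, and 6612, 7072, 7116, 6632 and 9675 in RvD6-isomer. The 3 groups overlapped. The log2 fold change was -0.28 (SE 0.14, 95% interval -0.58 to 0.01, adjusted p = 0.388) with RvD6-standard and -0.07 (SE 0.14, 95% interval -0.37 to 0.22) with RvD6-isomer. The summed neuron markers were 94084 to 108961 in vehicle, 52347 to 102169 in RvD6-standard and 84736 to 116260 in RvD6-isomer, and the part of neuron content in the Uchl1 values was not tested.

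The relatives of Uchl1 did not pass the test. Uchl3, which also processes NEDD8, had 211 ± 38.6, 192 ± 25.7 and 163 ± 34.8 normalized counts in vehicle, RvD6-standard and RvD6-isomer (SD, n = 5). Uchl5, a deubiquitinase bound to the proteasome, had 748 ± 133, 599 ± 101 and 660 ± 67.2. Its log2 fold change with RvD6-standard was -0.33 (SE 0.15, edgeR adjusted p = 0.345).

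Usp14, the other reversible deubiquitinase of the proteasome, had 1621 ± 207, 1296 ± 204 and 1610 ± 378 normalized counts in vehicle, RvD6-standard and RvD6-isomer. Its log2 fold change was -0.34 with RvD6-standard (SE 0.17) and -0.01 with RvD6-isomer (SE 0.17). Usp5, which cuts free ubiquitin chains, had 1429 ± 113, 1212 ± 225 and 1627 ± 173, and the difference between the lipids was 0.44 (SE 0.13, edgeR adjusted p = 0.284). Both genes had their lowest mean in RvD6-standard, by differences that did not pass the test.

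Usp20, Usp13 and Otub1 were the members whose RvD6-isomer TG all lay above the RvD6-standard TG, 3 of 79, beside 0.652% of all genes, and Ube2l6 was the 1 member below, beside 1.09%. Usp20, a deubiquitinase of membrane receptors, had 851, 908, 856, 801 and 730 normalized counts in RvD6-standard and 1414, 1025, 1236, 1328 and 1117 in RvD6-isomer, with vehicle between 794 and 1198. The difference between the lipids was 0.57 (SE 0.14), with adjusted p = 0.122 in edgeR and 0.00959 in DESeq2. Usp13, known for the control of autophagy, had 339, 524, 478, 348 and 234 in RvD6-standard and 610, 568, 597, 572 and 588 in RvD6-isomer. The RvD6-isomer TG were the more alike, with an SD of 17.4 against 116, and the difference was 0.62 (SE 0.18, edgeR adjusted p = 0.239). All 12 sensory neuron markers also had higher estimates with RvD6-isomer than with RvD6-standard, though 0 had all RvD6-isomer TG above. Against vehicle, 8 of the 12 were above 0 with RvD6-isomer and 1 with RvD6-standard. The part of neuron content in the differences of Usp5, Usp20, Usp13 and Otub1 was not tested.

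Otub1, which also binds and restrains E2 enzymes such as Ube2n, had 976 ± 118, 939 ± 87.1 and 1173 ± 144 normalized counts in vehicle, RvD6-standard and RvD6-isomer (SD, n = 5). The difference between the lipids was 0.33 (SE 0.13, edgeR adjusted p = 0.436). Otub2 was the member whose RvD6-standard TG all lay below the vehicle TG, with 71.9, 99.1, 98.1, 70.7 and 118 against 169, 127, 130, 132 and 200, beside 1.47% of all genes with such a separation. Its log2 fold change was -0.74 (SE 0.31, edgeR adjusted p = 0.311).

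The ubiquitin-specific proteases of signalling and of organelles that were chosen by role were not called by edgeR. Usp9x, a large protease of cell polarity and neuronal development, had 1207 ± 172, 1463 ± 234 and 1655 ± 365 normalized counts in vehicle, RvD6-standard and RvD6-isomer. Its log2 fold change with RvD6-isomer was 0.45 (SE 0.15, edgeR adjusted p = 0.153). Usp7, which stabilizes the p53 ligase MDM2, had 306 ± 80.3, 371 ± 84.8 and 410 ± 97.1, and Usp8, which acts on receptors in endosomes, had 626 ± 101, 610 ± 75.3 and 699 ± 209. Usp30, a protease of the outer mitochondrial membrane, was low, at 73.9 ± 32.1, 112 ± 48.0 and 103 ± 41.1.

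Usp2, a protease known for its daily rhythm, had 70.7, 56.9, 36.1, 69.9 and 69.9 normalized counts in vehicle and 71.9, 118, 72.9, 107 and 140 in RvD6-standard, so the groups did not overlap, though the nearest TG were 70.7 and 71.9. The log2 fold change was 0.73 (SE 0.30, edgeR adjusted p = 0.303). With Ube2d1, Ube2l6 and Ube2w it was among 4 members whose RvD6-standard TG all lay above the vehicle TG, beside 2.25% of all genes. For RvD6-isomer 2 members were above in this way, Ube2j1 and Ube2q2, and 0 below, beside 2.48% and 2.4% of all genes.

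The deubiquitinases that only DESeq2 called with RvD6-isomer were named after their values were seen. Usp11, a protease of DNA repair, had 43.3, 16.9, 24.9, 51.2 and 23.0 normalized counts in vehicle and 125, 44.7, 53.9, 97.3 and 89.4 in RvD6-isomer. These groups overlapped at 1 TG, and the log2 fold change was 1.35 (SE 0.36, 95% interval 0.59 to 2.12), with adjusted p = 0.0795 in edgeR and 0.00779 in DESeq2. With RvD6-standard Usp11 had 46.3 to 85.5 and a log2 fold change of 1.07 (SE 0.36, edgeR adjusted p = 0.215). Usp33, a close relative of Usp20, had 0.65 (SE 0.20) and Usp22, the deubiquitinase of the SAGA complex, 0.40 (SE 0.13) with RvD6-isomer, with edgeR adjusted p = 0.117 and 0.126.

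The rest of the 14 members with an unadjusted p below 0.05 for RvD6-isomer against vehicle were named after their values were seen, and none passed after adjustment. Ube2w, which attaches ubiquitin to the amino end of proteins, had 552 ± 67.8 normalized counts in vehicle, 711 ± 61.4 in RvD6-standard and 720 ± 105 in RvD6-isomer (SD, n = 5), with edgeR adjusted p = 0.286 and 0.186 for the lipids. Ube2e3, Usp4, Usp31 and Usp32 had log2 fold changes of 0.46 to 0.52 with RvD6-isomer (SE 0.20 to 0.24). Their estimates with RvD6-standard were 0.29, 0.04, 0.20 and 0.35.

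The members with an unadjusted p below 0.05 for RvD6-standard against vehicle and no mention so far were Usp21, Usp46 and Usp47, also named after their values were seen. Usp46, which works with the cofactor WDR48, had 434 ± 26.1 normalized counts in vehicle and 582 ± 144 in RvD6-standard, a log2 fold change of 0.41 (SE 0.16, edgeR adjusted p = 0.291). Usp47, a protease of base excision repair, stood at 0.50 (SE 0.23) and Usp21 at 0.56 (SE 0.26). The lower members by that measure were Otub2, Ube2j2, Uchl5, Usp13 and Usp20.

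The pair of stereoisomers was compared directly for each member. The 95% interval of the difference lay between -1 and 1 on the log2 scale for 66 of 79 members, with a median distance of 0.46 from the estimate to either end. That distance is for a single gene, before adjustment over all genes, so a call needs a larger difference. The highest estimate of the members, 0.62, lay above it, and edgeR called 0 members higher. A difference well below that distance was not detectable with 5 TG a group, and a p above the threshold does not show that the lipids acted alike.

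The genes that share only the prefix were not called. Ube2cbp, a ligase-like protein, had the lowest estimate of the members with RvD6-isomer, -2.06 (SE 1.03, edgeR adjusted p = 0.339), from 5.76 to 39.1 normalized counts in vehicle and 0.0 to 12.4 in RvD6-isomer. Usp6nl, an activator of Rab GTPases, had 213 to 266 normalized counts in 4 RvD6-isomer TG and 633 in replicate 12, and 342 to 501 in RvD6-standard. Without RvD6-isomer replicate 12 its difference between the lipids went from -0.44 to -0.87 and edgeR called it, with adjusted p = 0.0478.

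**Figure D4:**
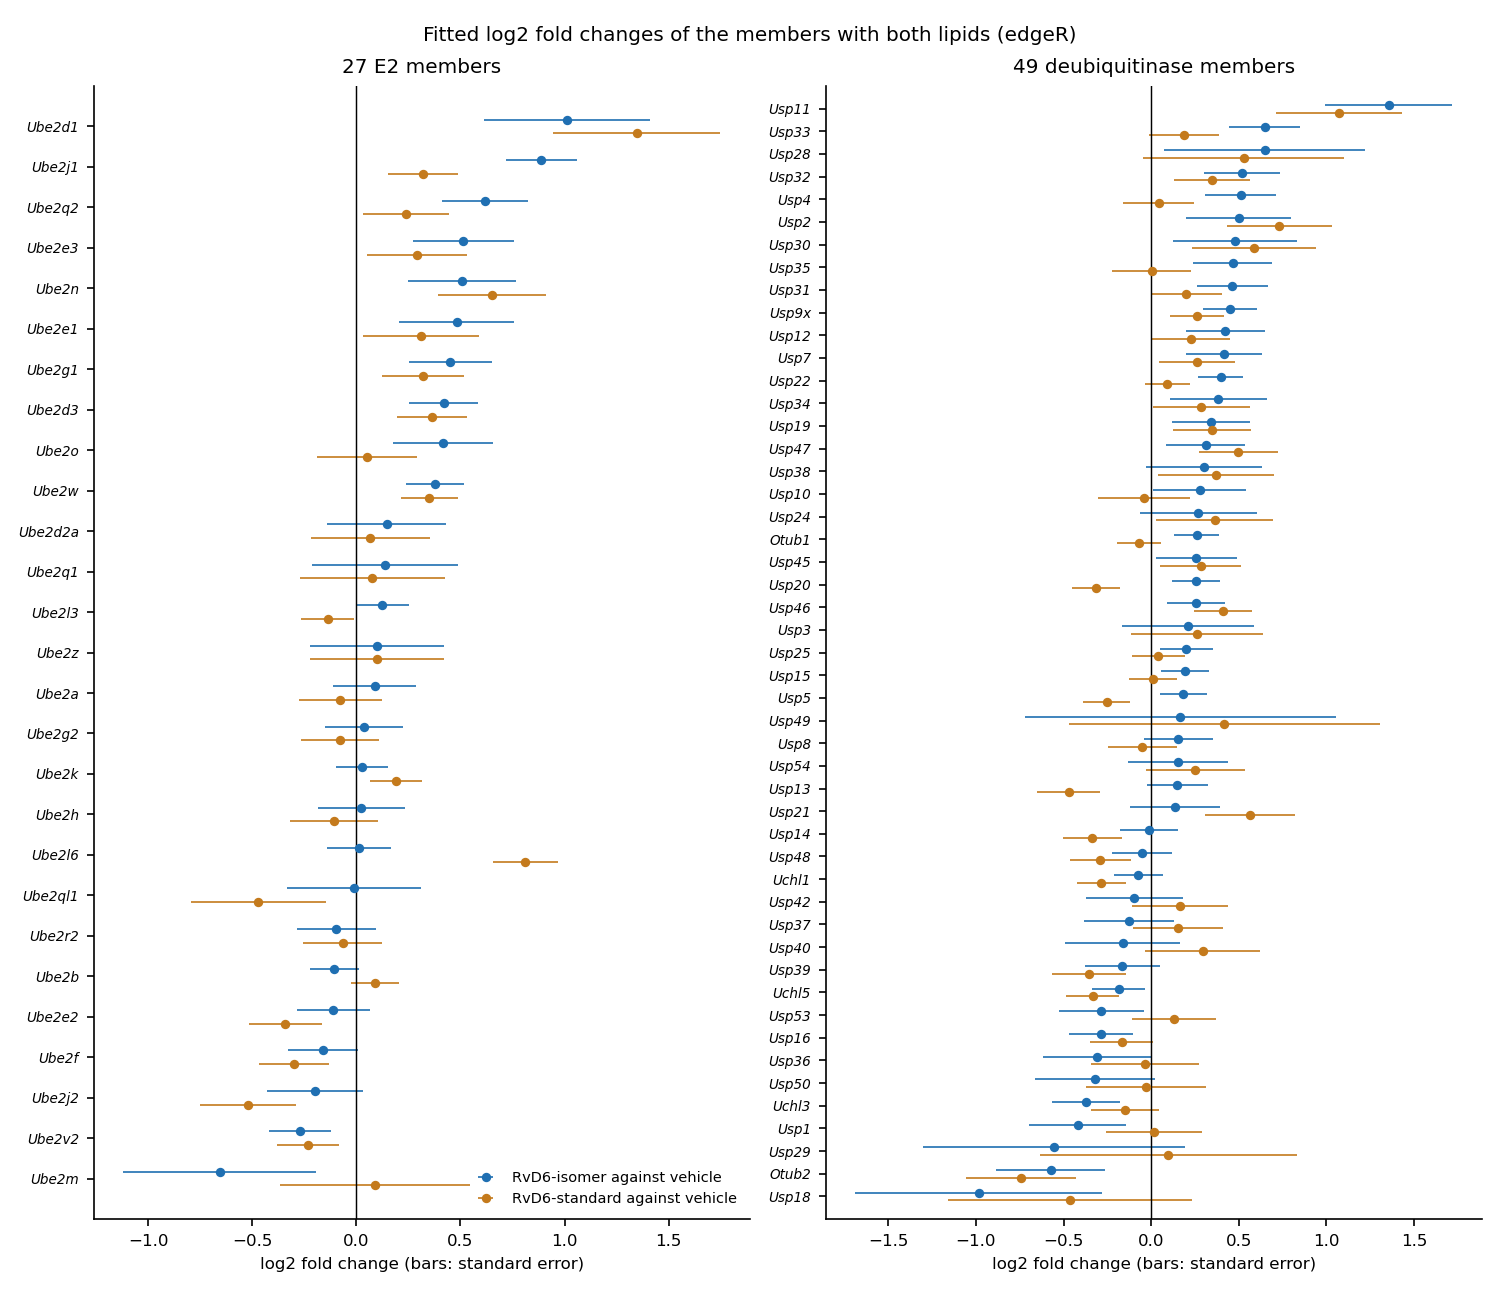
Log2 fold change and SE of 27 of the 28 E2 members and the 49 deubiquitinase members with RvD6-isomer and with RvD6-standard, each against the same 5 vehicle TG, in the order of RvD6-isomer. Most estimates lie within 0.5 of 0. The highest are those of Ube2d1 (1.35) and Usp11 (1.07) with RvD6-standard and of Usp11 (1.35) and Ube2d1 (1.01) with RvD6-isomer, with wider SE (0.36 to 0.40) than Ube2l6 (0.81, SE 0.16) and Ube2j1 (0.89, SE 0.17).

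More members had estimates above 0 than below with both lipids. Of all genes tested, 51.2% had estimates above 0 with RvD6-isomer and 52.2% with RvD6-standard. With RvD6-isomer against vehicle 51 of 79 were above 0 and 28 below, with a median log2 fold change of 0.09 over the E2 genes and 0.20 over the deubiquitinase genes, where the median of all genes tested was 0.02. With RvD6-standard 50 were above 0 and 29 below, and the medians were 0.08 and 0.13, beside 0.02 for all genes. Single TG moved these medians. Without RvD6-standard replicate 7 the medians with RvD6-standard were -0.01 for the E2 genes and 0.04 for the deubiquitinase genes. The E2 median with RvD6-standard was 0.03 without vehicle replicate 3, 0.06 without vehicle replicate 4, 0.05 without RvD6-standard replicate 9 and 0.14 without vehicle replicate 1, and the deubiquitinase median was 0.08 without vehicle replicate 4. With RvD6-isomer the E2 median was 0.06 without vehicle replicate 3, 0.05 without RvD6-isomer replicate 12 and 0.15 without RvD6-isomer replicate 13. The members were long by exonic length, with a median of 4433 bases for E2 genes and 7048 for deubiquitinase genes against 3968 for all genes tested. Across all genes the log2 fold change moved with exonic length, from a median of -0.29 in the shortest of 10 length classes to 0.14 in the longest with RvD6-isomer and from -0.11 to 0.17 with RvD6-standard. The rank correlation with length over all genes was 0.29 with RvD6-isomer and 0.25 with RvD6-standard. Over the E2 genes it was 0.03 and -0.17, and over the deubiquitinase genes 0.18 and 0.30.

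With the trend on length removed from each sample, the deubiquitinase medians were 0.08 with RvD6-isomer and 0.01 with RvD6-standard, and the E2 medians were 0.06 and 0.05. Estimates above 0 then numbered 49 of 79 members with RvD6-isomer and 44 with RvD6-standard, against 51 and 50 before. Over all 16567 genes tested these counts were 8271 and 8283. For the deubiquitinase genes these counts were 32 and 27 of 49, against 32 and 32 before. Ube2j1 kept a log2 fold change of 0.85 (edgeR adjusted p = 0.027) and Ube2l6 a difference between the lipids of -0.78 (adjusted p = 0.0338). Uchl1, among the shorter members with 1632 bases of exon, went from -0.07 to 0.10 with RvD6-isomer. The E2 median with RvD6-standard was -0.07 with the erythroid level as a covariate and -0.03 with the granulocyte precursor level.

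**Figure D5:**
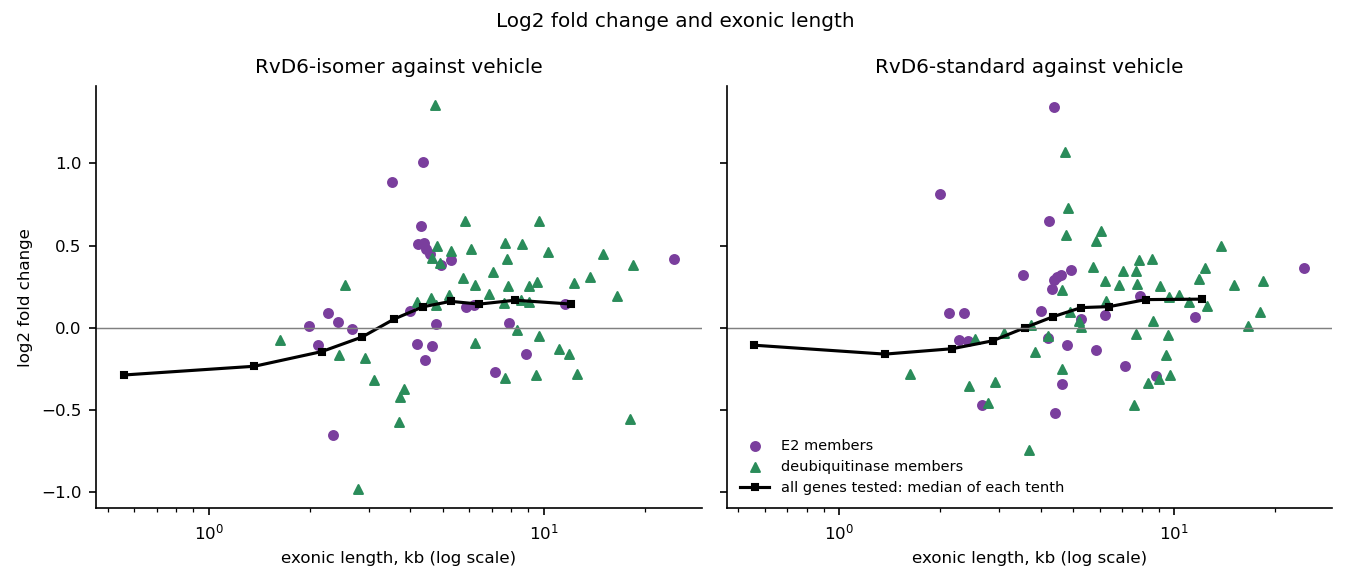
Log2 fold change of E2 members (circles) and deubiquitinase members (triangles) against exonic length in kb on a log scale, for 27 E2 and 49 deubiquitinase members and each lipid against vehicle. The line joins the medians of all genes tested in 10 length classes of equal size, which go from -0.29 to 0.14 with RvD6-isomer, and most deubiquitinase members lie where the line is above 0.

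The share of all counts that fell on the 97 members that met the rule, reported or not, differed between vehicle and RvD6-isomer. It was 0.507% to 0.578% in vehicle, 0.502% to 0.611% in RvD6-standard and 0.584% to 0.689% in RvD6-isomer, so that every RvD6-isomer TG lay above every vehicle TG. Without Uchl1 the ranges were 0.410% to 0.475% in vehicle and 0.484% to 0.594% in RvD6-isomer. The 10 most counted genes of the table took 16.1% to 17.3% of the counts in vehicle and 12.5% to 13.8% in RvD6-isomer. As a share of the remaining counts the members had 0.613% to 0.694% in vehicle and 0.668% to 0.790% in RvD6-isomer, and these ranges overlap.

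Both sides of the E2 step were examined through 99 genes of textbook lists, of which 97 were tested. With RvD6-isomer against vehicle edgeR called 1 of them, Uba3, the catalytic subunit of the E1 enzyme for NEDD8, beside 0.525% of all genes called higher, and 18 were higher and 6 lower at an unadjusted p below 0.05, beside 8.69% and 7.3% of all genes. Uba3 had 209 to 444 normalized counts in vehicle, 359 to 856 in RvD6-standard and 610 to 1199 in RvD6-isomer, with a log2 fold change of 1.37 (SE 0.25, edgeR adjusted p = 0.0262). Nae1, which forms the enzyme with Uba3, stood at -0.27 (SE 0.16), and Nedd8 at -0.43 (SE 0.14, edgeR adjusted p = 0.149). With RvD6-standard edgeR called 0 of the 97, with 9 higher and 4 lower at an unadjusted p below 0.05, beside 7.63% and 5.99% of all genes, and DESeq2 called 1 higher, beside 1.52%. Between the lipids edgeR called 0 of the 97, with 7 higher and 1 lower, beside 4.18% and 4.64% of all genes, and DESeq2 called 0.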

How the data were processed

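RNA of 15 TG was sequenced by an adapted Smart-seq2 protocol, which primes on the poly(A) tail and does not keep the strand. Per the deposited table, values are raw read counts per gene, which the authors made by alignment with Rsubread to GRCm38 (GENCODE release 22) and counting on exons with featureCounts; the submitters' processing notes name Subread 1.6.5 and R 3.6.1. Reads on several genes or places were not counted, and 29 of the 97 members share exonic positions with another gene. Gene symbols were taken from GENCODE release 21, built on that genome, and 99.8% of the identifiers had one; promoter windows came from RefSeq (GRCm38.p6).

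The main test was the edgeR 4.0.16 quasi-likelihood F test in R 4.3.3 on the counts of all 15 samples in 3 groups, with TMM normalization and the edgeR filter (minimum count 10, minimum total 15), Benjamini-Hochberg adjustment over 16567 genes and a threshold of 0.05. For normalized counts, each sample was scaled by its DESeq2 1.42.0 size factor. Intervals come from the same fit. Adjusted p-values are edgeR's unless DESeq2 is named. Groups followed the labels, also for RvD6-isomer replicate 15. Total counts had a median of 7756538 per TG, and the chi-square per degree of freedom between 2 samples of a group was 11.3 to 49.2, so the spread between samples set the precision. The labels name no mouse for a sample, so p-values measure the spread between these samples, which may be partly technical.

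Named members were 19 chosen by role (such as Uchl1, Ube2n and Usp7), each called member, and per comparison up to 3 with the largest increase or decrease among members with an unadjusted p below 0.05 and groups that do not overlap. The values of 1 of the 79 members are not reported here on their own. The members and lists were chosen with earlier results of these data known. Alternatives were DESeq2, only the 2 groups compared, RLE normalization, no filter, at least 10 counts in every sample, removal of the trend on gene length or GC content (lowess, span 0.3), each sample left out in turn and, chosen after seeing the data, the erythroid or granulocyte precursor level as a covariate. The steps were tested on simulated data.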

Additional observations from a re-analysis of the deposited data

Results flagged for a closer look

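A single TG stood apart from the other 4 of its group for 6 of the named members, among 72 groups of 5 examined, where chance flags about 1 in 20. Uchl1 had 9675 normalized counts in RvD6-isomer replicate 15 against 6612 to 7116 in the others. That TG also had the highest erythroid marker level of all and, at 84736, the lowest summed neuron markers of its group. Ube2k had 462 in vehicle replicate 5 against 506 to 524. Usp9x had 2299 in RvD6-isomer replicate 11 against 1447 to 1600. Usp5 had 1625 in vehicle replicate 4 against 1339 to 1407. Usp18 had 68.5 in RvD6-isomer replicate 13 against 5.59 to 11.4. Ube2d1 had 162 in RvD6-standard replicate 9 against 63.0 to 83.6.

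Ube2l6 differed between the lipids by a test of the difference itself, with a log2 fold change of -0.80 for RvD6-isomer against RvD6-standard (edgeR adjusted p = 0.0387).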

How the results depend on the processing

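The members called by edgeR numbered 1 for RvD6-isomer against vehicle, 0 for RvD6-standard against vehicle and 1 between the lipids. In that order DESeq2 called 5, 2 and 2. With at least 10 counts in every sample 2 were called with RvD6-isomer and 1 with RvD6-standard, with no filter 1 with RvD6-standard and 0 between the lipids, and with only the 2 groups compared 0 between the lipids. With the erythroid covariate 0 were called with RvD6-isomer and 0 between the lipids, and with the granulocyte precursor covariate 0 between the lipids. With each TG left out in turn the counts were 0 to 2, 0 to 1 and 0 to 1.

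Over all genes the counts were 111, 0 and 39. DESeq2 was run on all genes with its own filter. For RvD6-isomer against vehicle they were 920 with DESeq2, 315 with 10 counts in every sample, 63 with the length trend removed, 10 with the erythroid and 43 with the granulocyte precursor covariate, and 0 to 229 with a TG left out. For RvD6-standard against vehicle they were 369 with DESeq2 (342 of them among the 16567 genes that edgeR tested), 38 with the 2 groups, 56 with no filter, 24 with 10 counts in every sample, 1 with the granulocyte precursor covariate and 0 to 51 with a TG left out. Between the lipids they were 185 (162 of them among these genes), 17, 59 and 23 with DESeq2, the 2 groups, no filter and 10 counts in every sample, 0 with either covariate and 2 to 156 with a TG left out. The cause was not tested.

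The E2 median with RvD6-standard, 0.08, was -0.0693 with the erythroid and -0.0318 with the granulocyte precursor covariate and -0.0120 to 0.136 with a TG left out. Some estimates changed sign, most of them near 0. With the length trend removed Uchl1 stood at 0.10 and Ube2k at -0.12 with RvD6-isomer, and Otub1 at 0.0072 with RvD6-standard. With the GC trend removed Ube2k stood at -0.11 with RvD6-isomer. Usp14 with RvD6-isomer was 0.0023 with the 2 groups and 0.0034 with no filter. With the erythroid covariate Ube2m was -0.081, Usp8 0.12 and Usp18 0.35 with RvD6-standard, and with the granulocyte precursor covariate Otub1 was 0.084 and Usp18 0.76. Usp18 stood at -0.46 (SE 0.70) without a covariate. With a TG left out the ranges were -0.042 to 0.10 for Ube2l6 and -0.088 to 0.085 for Usp14 with RvD6-isomer, and -0.17 to 0.24 for Ube2m and -0.13 to 0.021 for Usp8 with RvD6-standard. No paired analysis was possible because the 3 groups share no replicate number. Depth limits the members with low counts, such as Ube2cbp, Usp49, Usp29 and Usp18, whose SE with RvD6-isomer were 0.70 to 1.03.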

Other observations

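Among the ligases and other partners of the members, named after their values were seen, DESeq2 called 7 of the 97 tested genes higher and 3 lower with RvD6-isomer against vehicle, beside 3.3% and 2.26% of all genes, and of these edgeR called Uba3. Ube3a, the HECT ligase lost in Angelman syndrome, had a log2 fold change of 0.71 (SE 0.17, edgeR adjusted p = 0.0569). Arih1, a ligase that works with cullin complexes, had 1.00 (SE 0.27), Cul2 and Ddb1, subunits of cullin-RING ligases, both had 0.77 (SE 0.20 and 0.21), and the edgeR adjusted p-values of the 3 were between 0.0714 and 0.0812. Sumo2 and Sumo3, ubiquitin-like modifiers, had -0.54 and -0.47 (SE 0.15 and 0.16, edgeR adjusted p = 0.0915 and 0.146).

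The estimates with RvD6-isomer against vehicle were above 0 for 23 of 25 HECT ligases, 9 of 11 RBR ligases, 9 of 15 cullin-RING subunits, 15 of 27 deubiquitinases of other families, 4 of 8 E1 enzymes, 1 of 4 ubiquitin genes and 0 of 7 ubiquitin-like modifiers. With RvD6-standard, against the same vehicle TG, the counts in that order were 22, 8, 8, 15, 3, 1 and 1. Of all genes tested, 51.2% were above 0 with RvD6-isomer and 52.2% with RvD6-standard. A difference between the lists was not tested. With the trend on gene length removed, the list medians moved from 0.30 to 0.17 for the HECT ligases and from -0.45 to -0.25 for the modifiers, where the median of all genes tested was near 0.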
